A study of Homo sapiens with 8 samples.

Results

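The genes described here are 10 genes of the epithelial-mesenchymal transition (EMT), namely SNAI1, SNAI2, ZEB1, ZEB2, TWIST1, VIM, FN1, CDH1, CDH2 and AXL. They are 10 of the 19812 protein-coding genes annotated on hg19, and they were listed by name. ChIP-Seq peaks were counted at a gene when they lay inside it or within 50 kb of either end. The windows held 92 DAXX peaks in WT cells and 64 in DAXX knockdown (K/D) cells, 6 and 0 DNMT1 peaks, and 95 and 94 H3(Lys4) regions.

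EMT is the program by which epithelial cells give up their cell-to-cell contacts and take on the shape and motility of mesenchymal cells, and carcinoma cells can use it to spread. Transcription factors of the SNAI, ZEB and TWIST families drive it. The SNAI and ZEB factors bind E-box sequences in the promoter of CDH1 and silence it, while mesenchymal proteins such as vimentin, fibronectin and N-cadherin are made in its place. The DAXX protein deposits histones and represses transcription together with other proteins, has no DNA-binding domain of its own, and DNMT1 copies DNA methylation to the new strand after replication.

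PC3, an established prostate cancer line derived from a bone metastasis, was compared with PC3 cells that carried a stable DAXX shRNA and grew with puromycin (2 µg/ml). DAXX, DNMT1 and a Lys4-marked form of histone H3 were precipitated from both lines with 1 library per line and antibody, so no difference between WT and K/D cells could be tested and each value below describes single libraries. The sample labels call the control cells wild type, whereas the series text speaks of a control shRNA line, and "WT" covers both. The H3(Lys4) antibody name does not spell out which modification of that lysine it reads. The libraries held 12050101 to 18705056 tags. Peaks took up 15.8% (WT) and 6.83% (K/D) of the DAXX tags, 23.9% and 15.1% of the H3(Lys4) tags, and 0.263% and 0.0663% of the DNMT1 tags, so every K/D list came from a library with weaker enrichment than its WT counterpart. A peak that is missing from a list was not called, which does not show that the site was empty, and the lists do not show how far DAXX itself was reduced. H3(Lys4) regions lay within 1 kb of a transcription start site (TSS) of the epithelial genes KRT8, KRT18, KRT19 and EPCAM in both lines and of neither leukocyte gene checked (PTPRC and CD3E). The luminal prostate genes KLK3 and KLK2 had none in either line, and TMPRSS2 had one in WT cells.

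The DNA under 8 of the peaks is printed because these peaks carry the main observations. All are on the plus strand of hg19, and capitals mark the letters of any motif searched. These motifs were AP-1 (TGACTCA or TGAGTCA), the E-box read by the SNAI and ZEB factors (CAGGTG), TEAD (GGAATG), RUNX (TGTGGT), ETS (CCGGAA) and the nuclear receptor element AGGTCA, on either strand. The first 3 sequences come from peaks shared by both lines that were the first of their gene in the WT list: AXL, with 2 AP-1 motifs and 1 TEAD motif, CDH1, with 1 AP-1, 1 AGGTCA and 1 ETS motif, and TWIST1, with 2 AGGTCA motifs.
AXL intron, chr19:41729504-41729676: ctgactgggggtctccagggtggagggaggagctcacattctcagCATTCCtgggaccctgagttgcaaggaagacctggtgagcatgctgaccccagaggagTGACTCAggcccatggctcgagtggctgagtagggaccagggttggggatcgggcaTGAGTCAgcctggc
CDH1 intron, chr16:68794841-68795013: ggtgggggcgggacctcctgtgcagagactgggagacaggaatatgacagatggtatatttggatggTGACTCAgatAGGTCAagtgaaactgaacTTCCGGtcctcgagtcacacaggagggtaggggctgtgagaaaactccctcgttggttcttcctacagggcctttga
TWIST1, chr7:19118685-19118857: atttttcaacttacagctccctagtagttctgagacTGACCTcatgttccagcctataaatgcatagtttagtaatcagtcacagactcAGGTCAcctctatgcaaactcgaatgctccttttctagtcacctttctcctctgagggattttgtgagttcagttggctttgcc
The next 2 lie upstream of ZEB1. The distal one was shared and held an AP-1 and an AGGTCA motif, and the proximal one was called in WT cells only and held an E-box and a TEAD motif.
ZEB1 distal, chr10:31604559-31604731: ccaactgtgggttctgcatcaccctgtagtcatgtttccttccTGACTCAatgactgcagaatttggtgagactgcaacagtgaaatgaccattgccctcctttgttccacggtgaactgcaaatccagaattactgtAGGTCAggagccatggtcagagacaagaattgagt
ZEB1 proximal, chr10:31607197-31607369: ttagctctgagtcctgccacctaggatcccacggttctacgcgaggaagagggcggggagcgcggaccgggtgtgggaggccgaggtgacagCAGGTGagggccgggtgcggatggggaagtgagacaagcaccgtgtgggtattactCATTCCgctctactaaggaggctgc
The ZEB2 sequence is the WT DAXX peak that coincided with the earliest DNMT1 peak of the set, and the peak itself held none of the motifs searched.
ZEB2 intron, chr2:145214302-145214474: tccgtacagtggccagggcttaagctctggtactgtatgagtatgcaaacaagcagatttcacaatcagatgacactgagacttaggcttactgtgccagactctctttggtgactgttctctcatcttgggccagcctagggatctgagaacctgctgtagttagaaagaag
The last 2 are promoter peaks called in K/D cells only. The SNAI1 peak held an AGGTCA and an E-box motif that share letters, and the FN1 peak held none of the motifs searched.
SNAI1 promoter, chr20:48598996-48599166: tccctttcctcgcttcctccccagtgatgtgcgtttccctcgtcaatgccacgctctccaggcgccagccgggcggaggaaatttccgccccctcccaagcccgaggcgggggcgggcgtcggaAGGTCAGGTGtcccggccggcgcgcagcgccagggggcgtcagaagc
FN1 promoter, chr2:216300914-216301084: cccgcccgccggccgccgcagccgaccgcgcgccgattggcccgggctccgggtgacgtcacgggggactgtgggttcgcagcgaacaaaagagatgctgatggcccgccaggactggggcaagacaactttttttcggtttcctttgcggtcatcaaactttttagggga

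DAXX peaks were found at all 10 genes in both lines, against 85.3% of all protein-coding genes in the WT list and 81.4% in the K/D list. A gene of the set had a median of 8.5 WT and 5.5 K/D DAXX peaks, where the median over all genes was 4 and 2. Cut in deposited order to the length of the K/D list, the WT list held 68 peaks at the 10 genes against 64, so the totals of 92 and 64 moved with list length. Long genes hold more peaks, and per 100 kb of window the medians were 4.6 and 2.97, against 2.53 and 1.72 over all genes. The density was not particular to the set. The 23 further epithelial genes described below had 4.53 and 2.61, and the 20 further mesenchymal genes 2.73 and 2.06. A DAXX peak centre lay within 10 kb of a TSS for 9 of the 10 genes in WT cells (all genes 51.2%) and for 8 in K/D cells (all genes 41.8%). The median distance from a TSS to the nearest DAXX peak was 1912.5 bp (WT) and 1802 bp (K/D), against 9220 and 15495 bp over all genes. The order of the lines turned under other settings, at 3366 and 3624 bp from the outermost 5′ ends of the 10 genes and 3864.5 and 6504.5 bp with the first 50% of each list. The genes were chosen by name with results of these data known, so these values are a description and carry no test.

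**Figure D1:**
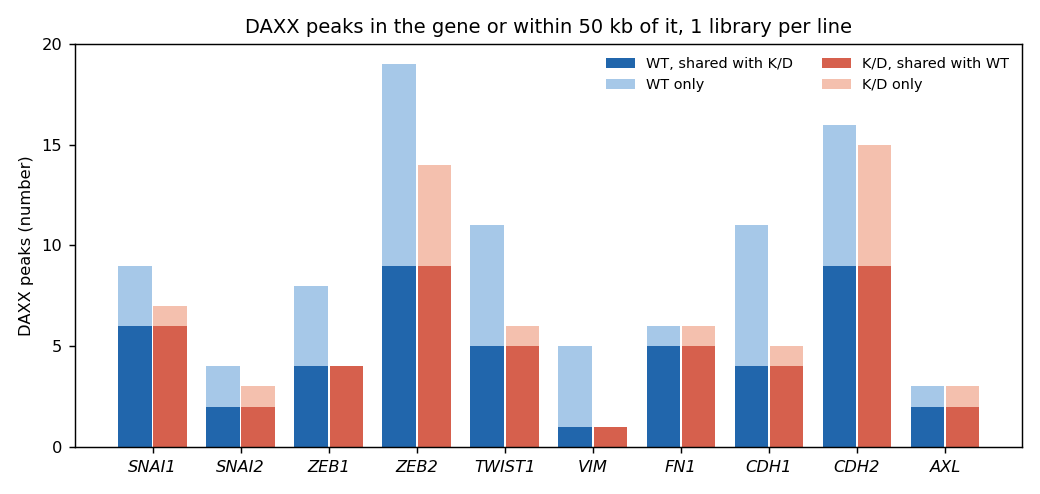
Bars give the number of DAXX peaks (y axis) in each gene or within 50 kb of it (x axis), for WT (blue) and K/D (red) cells, with dark parts for peaks shared by both lines and light parts for peaks of 1 line only. ZEB2 had 19 WT and 14 K/D peaks and CDH2 16 and 15, whereas VIM had 5 and 1 and CDH1 11 and 5. The full lists differ in length, with 59778 WT and 42894 K/D peaks.

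The 92 WT DAXX peaks lay mostly away from promoters and exons. Inside the genes 47 were intronic and 0 had their centre in an exon, and of the rest 22 were upstream and 23 downstream. For 76 of the 92 the nearest protein-coding TSS was that of the EMT gene itself, and for the other 16 it belonged to a neighbour such as GTDC1 at ZEB2, RNF114 at SNAI1, TRDMT1 at VIM or TANGO6 at CDH1. These location counts depend on the window rule and were not set beside all WT DAXX peaks. Whether they set these genes apart was not tested. The DAXX peaks within 1 kb of a TSS were few. WT cells had them at ZEB1, VIM, CDH2 and AXL (4 of 10 genes, all genes 26.3%) and K/D cells at SNAI1, VIM, FN1 and AXL (4 of 10, all genes 19.7%). VIM and AXL had one in both lines, ZEB1 and CDH2 in WT cells only, and SNAI1 and FN1 in K/D cells only.

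**Figure D2:**
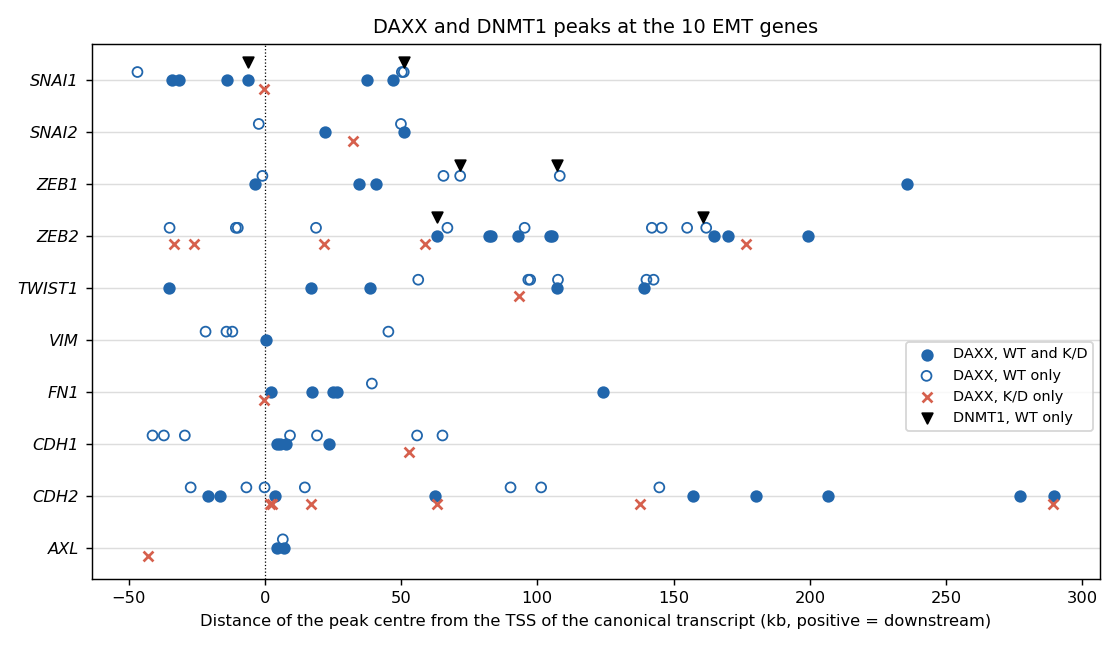
Each row is a gene and each mark the centre of a peak, placed by its distance in kb from the TSS of the canonical transcript (x axis, downstream to the right), with filled circles for DAXX peaks of both lines, open circles for WT only, crosses for K/D only and black triangles for DNMT1. DNMT1 triangles stand at SNAI1, ZEB1 and ZEB2, 2 at each, and all 6 are from WT cells.

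Of the 92 WT DAXX peaks, 47 shared at least 1 bp with a peak of the K/D list (51.1%, exact 95% binomial interval 40.4 to 61.7) and 45 did not (48.9%). Over the whole WT list 51.6% of peaks were not shared, so sharing at the EMT genes was close to that of the list. Such intervals cover counting error only, and neighbouring peaks are not independent. In the K/D list 17 of the 64 peaks at the genes were not shared (26.6%, interval 16.3 to 39.1), against 32.6% of all K/D DAXX peaks. The centres of shared peaks were a median of 13 bp apart, where the rule of overlap limits this distance to about the width of a peak. Of the 45 WT peaks without a partner, 4 had a K/D peak centre within 1 kb.

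Sharing followed the place of a peak in the list, where the strongest peaks stand first. All 6 WT peaks of the EMT genes in the first 10% of the list were shared (all WT peaks there 93.7%). So were all 11 of the next 10% (all WT peaks there 79.4%). In the first 50% of the list 33 of 45 were shared (73.3%, all WT peaks 69.3%), and in the rest 14 of 47 (29.8%, all WT peaks 27.4%). If the peaks of each 10% of the list had been shared at the rate of all WT peaks there, 44.5 would have been shared where 47 were. The median place was 31.4% down the list for shared peaks and 61.2% for the peaks of WT cells only. Peaks of K/D cells only stood low in the K/D list, at a median of 76.1%.

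**Figure D3:**
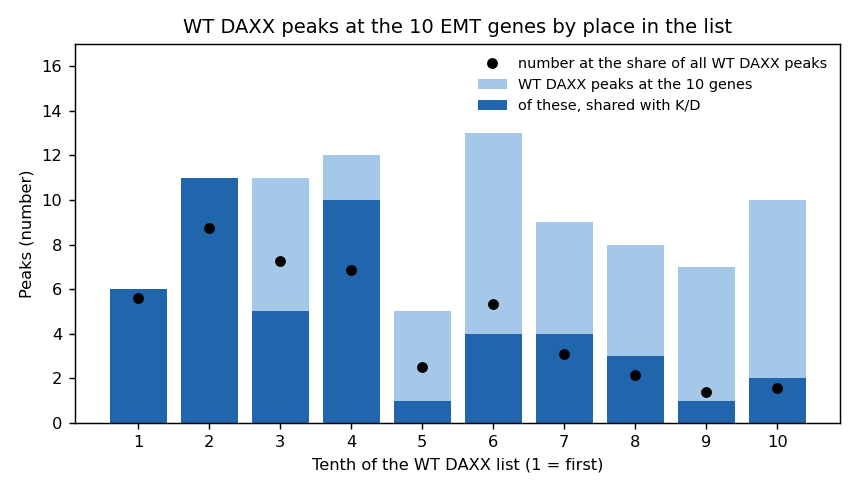
For each 10% of the WT DAXX list in deposited order (x axis, 1 = strongest), light bars give the number of WT DAXX peaks at the 10 genes, dark bars how many were shared with K/D cells, and black dots the number given by the share of all WT DAXX peaks in that 10%. The first 2 bars are fully shared, with 6 of 6 and 11 of 11 peaks (all WT DAXX peaks 93.7% and 79.4%).

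**Figure D4:**
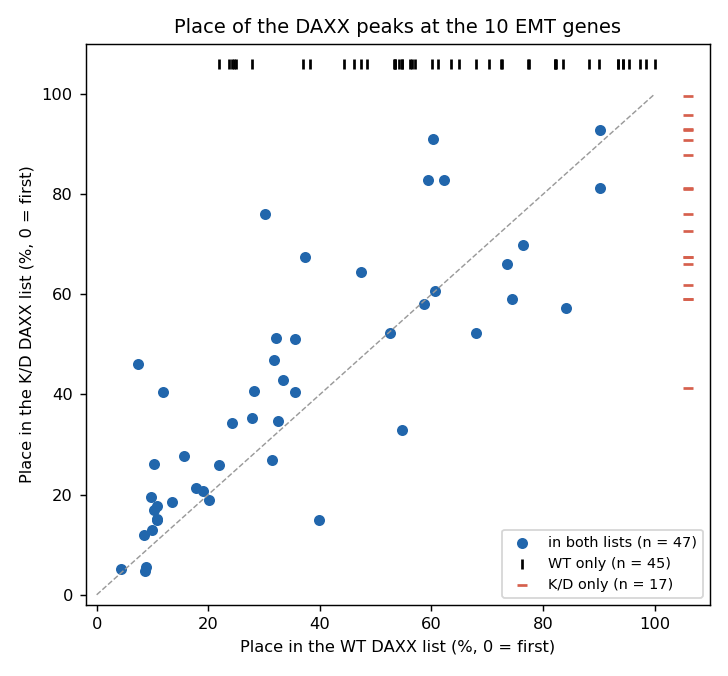
Each blue point is 1 of the 47 DAXX pairs shared by both lines, placed by its position in the WT list (x axis, %) and in the K/D list (y axis, %), with 0 for the first peak and the dashed line for equal places. Black ticks at the top are the 45 WT-only peaks and red ticks at the right the 17 K/D-only peaks, the earliest of which stands at 41.3%.

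Among the transcription factors, SNAI1 (Snail, chr20:48599517-48605423, plus strand) had 9 WT and 7 K/D DAXX peaks, of which 6 were shared. All lay outside the 5.91 kb gene. The nearest WT peak was 6243 bp upstream of the TSS, at place 6003 of the WT list and 5514 of the K/D list. It was also the first of its gene in both. The promoter itself had no WT DAXX peak and no WT H3(Lys4) region, the nearest edge of one being 2904 bp from the TSS. In K/D cells a DAXX peak was called 436 bp upstream of the TSS on an H3(Lys4) region of 917 bp that covered the TSS. This DAXX peak stood 93.0% down the K/D list and was thus among its weakest, while the H3(Lys4) region stood at 16.7%.

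SNAI2 (Slug, chr8:49830157-49834299, minus strand), a close relative of SNAI1, had 4 WT and 3 K/D DAXX peaks, with 2 shared. Its nearest and first-placed WT peak, 2204 bp upstream of the TSS and 24.7% down the list, had no K/D partner, and the nearest K/D peak, which was also the first in its list (place 27604), was 21992 bp downstream. The H3(Lys4) region over the body of SNAI2 was kept, with 3604 bp in WT and 3546 bp in K/D cells.

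ZEB1 (chr10:31607424-31818742, plus strand), a zinc-finger repressor of epithelial genes, had 8 WT and 4 K/D DAXX peaks, and all 4 K/D peaks were shared. The WT peaks at places 43374, 45657, 50262 and 58209 stood past 42894, the length of the K/D list. The WT peak 771 bp upstream of a TSS (place 31972, 53.5% down the list) had no K/D partner. The peak 3409 bp upstream was kept and moved little, from 20.2% to 19.0% down its list, on an H3(Lys4) region present in both lines (3545 bp long in WT and 2876 bp long in K/D cells). The first-placed ZEB1 peak lay 235519 bp downstream of the nearest TSS, past the end of the gene, at place 6078 in WT and 11243 in K/D cells. The K/D peak first in its list was the one upstream, at place 8161.

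ZEB2 (chr2:145121931-145278624, minus strand), the second ZEB repressor, carried the largest number of peaks in the set, with 19 WT and 14 K/D DAXX peaks and 9 shared. It has 19 annotated starts spread over the gene, so its distances are mostly to internal starts. The nearest WT peak lay 1621 bp upstream of an internal start, in an intron 63.3 kb downstream of the canonical TSS, and was kept in K/D cells. The first-placed peak was 16293 bp downstream of a start, at place 5086 in WT and 5127 in K/D cells. Upstream of the gene all 3 WT DAXX peaks were lost and 2 K/D peaks were called elsewhere.

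TWIST1 (chr7:19060614-19157259, minus strand), a basic helix-loop-helix factor, had 11 WT and 6 K/D DAXX peaks, with 5 shared. It was the gene without a DAXX peak within 10 kb of its TSS in WT cells, the nearest being 16932 bp downstream in WT and 16920 bp in K/D cells. Its first-placed peak, 38488 bp downstream, was at place 5335 (8.92%) in the WT list and 2355 (5.49%) in the K/D list. The annotated gene is 96.6 kb long because of 1 long transcript, so a peak called intronic here may lie beyond the usual gene. The WT peaks within 50 kb of the TSS, 16932 and 38488 bp downstream and 35058 bp upstream, were all shared. The other WT peaks lay 56319 to 142662 bp downstream, and of these the ones at 107116 and 139329 bp were shared. The window also takes in HDAC9, so the peak totals of TWIST1 describe this wide span.

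Among the mesenchymal proteins, VIM, which encodes the intermediate filament vimentin (chr10:17270240-17279592, plus strand), had 5 WT and 1 K/D DAXX peaks. The WT peaks at places 43366, 55808 and 55809 stood past 42894, the length of the K/D list. The peak kept was at the promoter, 348 bp downstream of the TSS in WT and 276 bp in K/D cells, at nearly equal places (60.6% and 60.7%). The other 4 lay 11.9 to 44.3 kb from a TSS, and the first of them in the list was at place 31964, so none of the VIM peaks belonged to the strongest 50% of the WT list.

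FN1, the gene of the matrix protein fibronectin (chr2:216225163-216300796, minus strand), kept 5 of its 6 WT peaks, and K/D cells also had 6. The kept peak nearest to the TSS was 2264 bp downstream at place 6522 in WT and 6513 in K/D cells, and was the first of FN1 in the K/D list. The peak first in the WT list, 17343 bp downstream, went from place 4447 to 19759. The K/D-only peak was 203 bp upstream of a TSS and 59.1% down the list. It did not overlap a K/D H3(Lys4) region, although regions stood on both sides of it.

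CDH2, which encodes N-cadherin (chr18:25512843-25757910, minus strand), had 16 WT and 15 K/D DAXX peaks. These totals covered 9 shared peaks, 7 of WT cells only and 6 of K/D cells only. They come from lists of unequal length, with 59778 WT and 42894 K/D peaks. The CDH2 peaks at WT places 43969, 46337, 53933, 53934, 56456, 58839 and 59766 stood past the K/D length, so the totals are not like for like. The WT peak 63 bp upstream of a TSS (77.5% down the list) had no K/D partner, whereas K/D-only peaks lay 1981 and 2748 bp downstream. The first-placed peak of both lists lay past the end of the gene, 149167 bp downstream of an internal start and 289712 bp from the canonical TSS. It moved from place 5168 in WT to 2055 in K/D cells.

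AXL, a receptor tyrosine kinase gene often active in mesenchymal carcinoma cells (chr19:41725128-41767671, plus strand), had 3 DAXX peaks in each line, with 2 shared. It held the strongest DAXX peak of the whole set in WT cells, at place 2566 (4.29% down the list) and place 2180 in K/D cells (5.08%). This peak was in an intron 4462 bp downstream of the canonical TSS and 3070 bp upstream of an internal start. Closer to that start, the peak at 461 bp upstream was kept (495 bp in K/D cells) and the one at 913 bp upstream was not.

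CDH1, the epithelial member, encodes the adhesion protein E-cadherin (chr16:68771195-68869440, plus strand). It had 11 WT and 5 K/D DAXX peaks, with 4 shared. The 4 shared peaks were all intronic and lay 4584, 5585, 7612 and 23672 bp downstream of a TSS. None of the 3 upstream WT peaks was kept. Those at places 53796 and 56346 stood past 42894, the length of the K/D list. No DAXX peak lay within 1 kb of the TSS in either line, and the window also takes in CDH3 and TANGO6. The first-placed peak, at 23672 bp, went from place 6109 to 7276 and was outside H3(Lys4) regions in both lines. The 3 others lay on H3(Lys4) regions in both lines.

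The change in peak number differed from gene to gene. The K/D count was 0.2 of the WT count at VIM, 0.455 at CDH1, 0.5 at ZEB1, 0.545 at TWIST1, 0.737 at ZEB2, 0.778 at SNAI1, 0.938 at CDH2 and 1 at FN1. Over the 8151 genes with at least 5 WT DAXX peaks the median was 0.625, with 0.5 and 0.8 at the quartiles. VIM and CDH1 lay under these quartiles, CDH2 and FN1 above them, and counts this small move by much through a single peak. The counts, and the median over all genes, take each list at full length (59778 WT and 42894 K/D peaks). List length therefore enters each ratio. Beyond VIM and CDH2, WT peaks past place 42894 stood at CDH1 (places 46213, 53796 and 56346) and FN1 (place 49217). They also stood at ZEB1 (places 43374, 45657, 50262 and 58209), ZEB2 (44551, 49142, 49143 and 57055) and TWIST1 (49928 and 52698).

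DNMT1 peaks were found at 3 transcription factor genes of the set, and in WT cells only. SNAI1, ZEB1 and ZEB2 had 2 each, so 3 of the 10 genes had a WT DNMT1 peak (all genes 11.4%) and 0 of 10 a K/D one (all genes 4.07%). None of the 6 WT peaks was shared, as was the case for 91.4% of the whole WT list. The K/D list held 595 DNMT1 peaks against 2234 in WT cells. With the WT list cut to the length of the K/D list, 2 of the 6 remained, at ZEB1 (place 483) and ZEB2 (place 241), and SNAI1 had none. Of the 6 WT peaks 4 overlapped a WT DAXX peak (all WT DNMT1 peaks 52.6%) and 4 a WT H3(Lys4) region (all 37.7%). With 6 peaks the interval for either count was 22.3 to 95.7%, which holds both list shares.

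At SNAI1, a DNMT1 peak stood 6138 bp upstream of the TSS on the shared DAXX peak there, and a second 51067 bp downstream on a DAXX peak of WT cells only. At ZEB1, the one 71765 bp downstream of the nearest TSS overlapped a DAXX peak of WT cells only, and the one at 107366 bp, which was the earlier in the list (place 483), overlapped none. At ZEB2, the peak 1600 bp upstream of an internal start was the earliest of the 6 (place 241, 10.8% down the list). It overlapped the DAXX peak whose sequence is printed above, which was still called in K/D cells. The other ZEB2 peak lay nearest to a start of GTDC1 and overlapped no DAXX peak. Thus of the 4 DAXX peaks with DNMT1, those at SNAI1 (6243 bp upstream) and ZEB2 were kept while the DNMT1 call was not.

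H3(Lys4) regions were present at all 10 genes in both lines (all genes 90.3% for the WT list and 90.0% for the K/D list). A region lay within 1 kb of a TSS at 9 genes in WT (all genes 58.0%) and at 9 in K/D cells (all genes 55.0%). The exceptions were SNAI1 in WT cells, and ZEB1 in K/D cells, where the nearest edge was 1629 bp from a TSS and a WT region of 501 bp centred 292 bp downstream of a TSS had no K/D partner. ZEB2 counted in K/D cells only through a region of 501 bp near an internal start, 93.1% down the list. At the 10 genes 41 of 95 WT regions were not shared (43.2%, interval 33.0 to 53.7, whole list 54.2%), and 40 of 94 K/D regions (42.6%, interval 32.4 to 53.2, whole list 51.8%).

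The largest difference in covered length was at ZEB2. Within the ZEB2 window the H3(Lys4) regions covered 25.7 kb in WT and 15.0 kb in K/D cells. The K/D regions were also shorter genome-wide, with a median width of 644 bp against 756 bp for the WT list. Their summed length was 64.4 Mb, against 78.1 Mb for WT regions, although the lists held similar numbers (72181 and 72064). Whether the shorter lengths at ZEB2, AXL and VIM go beyond this list-wide difference was not tested. The WT region over the 5′ cluster of ZEB2 starts was 4356 bp long (place 1606, 2.23% down the list), and no K/D region overlapped it. At AXL the region over the canonical TSS was the earliest of the set in the WT list (place 678) and was 7379 bp long. In K/D cells 3 regions of 501, 1160 and 2264 bp lay within it, and the region over an internal AXL start was kept (950 and 907 bp). At VIM the 2454 bp region over the TSS was overlapped by 2 K/D regions of 501 bp. The number of VIM regions rose from 6 to 11, while the length they covered went from 12.4 to 10.4 kb.

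CDH2 showed the opposite. Its regions covered 11.7 kb in WT and 17.7 kb in K/D cells, and their number went from 12 to 18. The one just downstream of the TSS grew from 3663 to 4971 bp and moved from place 2407 to 335, the earliest place of any K/D region in the set. Regions 547 and 5638 bp upstream of a CDH2 start were called in K/D cells only. At FN1 the region downstream of the TSS went from 2193 to 2737 bp, and a region of 3504 bp centred 2472 bp upstream was called in K/D cells only (2.13% down the list). At CDH1 the TSS region went from 1758 to 1295 bp, and the 1068 and 3302 bp intronic regions of WT cells were called as 1 region of 4305 bp in K/D cells. TWIST1 and SNAI2 kept their gene-body regions, with 3979 and 3501 bp at TWIST1. The smaller region just upstream of the TWIST1 TSS was also shared, at 631 bp in the WT list and 627 bp in the K/D list. The order of the H3(Lys4) lists is less certain than that of the DAXX lists, since peak numbers followed the order with a median rank correlation of 0.589 in WT and 0.605 in K/D cells, against 0.995 and 0.991 for DAXX.

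**Figure D5:**
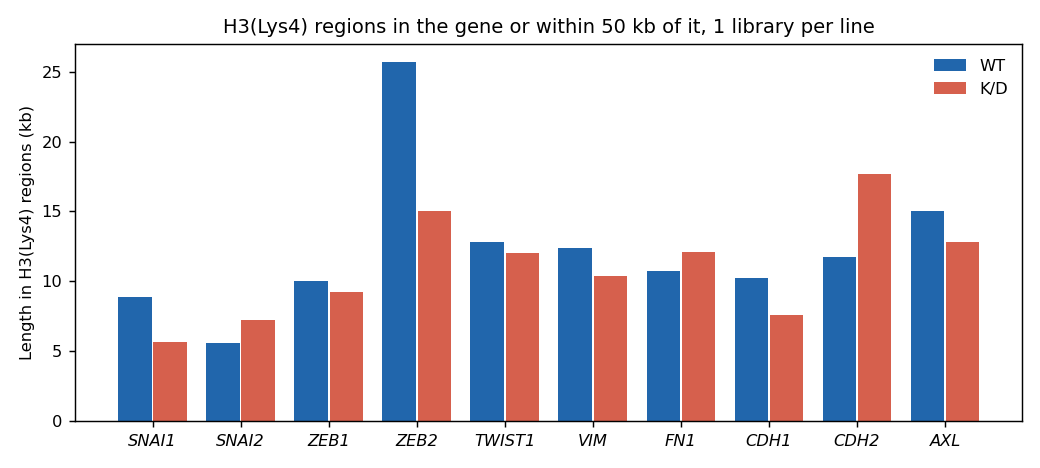
Bars give the length in kb (y axis) covered by H3(Lys4) regions in each gene and the 50 kb to either side (x axis), in WT (blue) and K/D (red) cells, 1 library each. The length was lower in K/D cells at ZEB2 (25.7 to 15.0 kb) and higher at CDH2 (11.7 to 17.7 kb). Genome-wide, the summed length of the K/D regions was 64.4 Mb, against 78.1 Mb for the WT regions.

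DAXX peaks of the set lay on H3(Lys4) regions of the same line in 40 of 92 cases in WT (43.5%, interval 33.2 to 54.2, all WT DAXX peaks 37.4%) and in 31 of 64 cases in K/D cells (48.4%, interval 35.8 to 61.3, all K/D DAXX peaks 28.7%). By gene, 13 of 19 WT peaks at ZEB2 did so but 1 of 8 at ZEB1. Of the WT peaks on H3(Lys4), 26 of 40 were shared with K/D cells (65.0%, interval 48.3 to 79.4), and of those off it 21 of 52 (40.4%, interval 27.0 to 54.9). Over all WT DAXX peaks the order was the other way round, at 45.8% on and 49.9% off H3(Lys4).

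The motif searched for most often found within 100 bp of a WT DAXX peak centre was AP-1, the site of the FOS and JUN factors, in 38 of 92 peaks (41.3%, interval 31.1 to 52.1, all WT DAXX peaks 36.2%). Shared peaks held it in 22 of 47 cases and WT-only peaks in 16 of 45. The E-box was in 15 peaks (16.3%, interval 9.42 to 25.5, all 13.7%). By gene it was in 4 of 11 at CDH1, 2 of 4 at SNAI2, 2 of 6 at FN1 and 1 of 3 at AXL. It was in 2 of 8 at ZEB1, 2 of 19 at ZEB2, 1 of 9 at SNAI1 and 1 of 11 at TWIST1. CDH2 had it in 0 of 16 and VIM in 0 of 5. The nuclear receptor motif AGGTCA was in 16 peaks (17.4%, interval 10.3 to 26.7), where all WT DAXX peaks held it in 30.9%. In the K/D list it was in 19 of 64 peaks at the genes (29.7%, interval 18.9 to 42.4), against 35.5% of all K/D DAXX peaks. Of the 16 WT peaks, 12 were among the 47 shared and 4 among the 45 of WT cells only. The splits of AP-1 and AGGTCA by sharing were not made over all WT DAXX peaks. Whether they are particular to these genes was not tested. The TEAD, RUNX and ETS motifs were in 13.0%, 17.4% and 3.26% of the peaks, against 15.6%, 20.1% and 4.17% of all. The median GC content was 44.2% at the genes and 44.5% over all WT DAXX peaks. A match says only that the letters are present.

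Other EMT genes were counted in the same way. Of 20 further mesenchymal genes, 17 had a DAXX peak inside or within 50 kb in each line, and of 23 further epithelial genes all 23 (all protein-coding genes 85.3% in WT, 81.4% in K/D). A DAXX peak lay within 10 kb of a TSS at 10 mesenchymal genes in WT and 9 in K/D cells, and at 17 and 14 epithelial ones (all genes 51.2% and 41.8%). The mesenchymal counts were near these backgrounds. WT DNMT1 peaks were near 1 of the mesenchymal and 3 of the epithelial genes (all genes 11.4%), and K/D ones near none of the 43 (all genes 4.07%). An H3(Lys4) region lay within 1 kb of a TSS at 13 mesenchymal genes in WT and 10 in K/D cells, and at 21 and 16 epithelial ones (all genes 58.0% and 55.0%).

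The mesenchymal genes with the earliest WT DAXX peaks were TWIST2, a relative of TWIST1 (place 903), NT5E, the surface enzyme CD73 (place 970), and TCF4, an E-box factor (place 1637). The epithelial ones were TJP1, the tight-junction protein ZO-1 (place 274), JUP, the junction protein plakoglobin (place 843), and GRHL2, an epithelial transcription factor (place 1348). All 6 stood earlier in the WT list than the first peak of any of the 10 genes. They were picked for early places among 43 genes, so this order follows in part from that choice. TJP1 had 25 WT and 19 K/D DAXX peaks, and GRHL2 had 14 and 17.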

How the data were processed

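Per the labels and the study's methods, the authors used CASAVA 1.8.2 for base calls, Bowtie2 2.1.0 for alignment to hg19 and HOMER 4.6 for peaks, called on each library against its input (versions from the submitters' processing notes). The headers state a 4-fold excess over input and a Poisson p of 0.0001, with an FDR of 0.001 for DAXX and DNMT1. The deposited lists give start, end and a score of 1 for every peak, so strength was read from the place in the list, since HOMER writes peaks in order of strength. Depth per peak is not given there, and 0 columns of other samples were left out.

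Here, 113 peaks on other contigs were dropped. Genes, basic transcript starts and exons came from GENCODE release 44 on GRCh37, the build of hg19, and sequence from that genome. Place 0% is the start of a list. Sharing meant at least 1 bp in common. Covered length and counts were taken over the gene and 50 kb to either side. Intervals are exact (Clopper-Pearson, 95%). No test was made, with 1 library per group. Overlap and motif searches were tested on simulated peaks and sequences. Python 3.11.15, pandas 2.3.3, numpy 2.4.6 and scipy 1.17.1 were used.

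The genes, motifs and lists were chosen with earlier results of these data known. For each gene the text names the WT DAXX peak nearest to a TSS, the first-placed WT and K/D DAXX peak, every DNMT1 peak and every peak within 1 kb of a TSS, and of each further EMT list the 3 genes with the earliest WT DAXX peak. Other peaks and H3(Lys4) regions were singled out after their values were seen. Alternatives were other windows, other rules of overlap, the first 50% of each list, lists of equal length, other starts and a narrower motif window. The canonical-transcript span was added after seeing the data. A marker gene that was checked is not reported here.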

Additional observations from a re-analysis of the deposited data

How the results depend on the processing

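No paired analysis was possible because each group has 1 library. Of 64 values under alternatives, 43 stayed within the limits (1.5 times for counts and distances, the 95% interval for shares) and 21 moved. With 10 kb to either side, the DAXX counts were 58 (WT) and 40 (K/D) and the H3(Lys4) counts 62 and 63, where K/D cells had 1 region more and not 1 fewer. With 100 kb, 1 K/D DNMT1 peak appeared. In the first 50% of each list there were 45 (WT) and 30 (K/D) peaks of DAXX, 55 and 53 regions of H3(Lys4) and 3 WT DNMT1 peaks, and 62.2% of WT DAXX peaks were shared. With lists of equal length, 2 WT DNMT1 peaks remained in the cut list, against 0 in K/D cells, and the DAXX counts were 68 and 64. Sharing of H3(Lys4) regions depended on the rule, at 8.42% for centres within 100 bp and 24.2% for 50% in common, since these regions vary in width. From the outermost 5′ end of each gene the median distance to a DAXX peak was 3366 bp in WT and 3624 bp in K/D cells, and with the first 50% of each list 3864.5 and 6504.5 bp, so that WT cells had the shorter distance under both, against the main order. Within 50 bp of the centre the shares of WT DAXX peaks with the E-box, TEAD, RUNX and AGGTCA motifs were 8.7%, 6.52%, 9.78% and 8.7%, as a narrower window must lower them. With the canonical-transcript span, chosen after seeing the data, the DAXX counts were 81 and 57 and 51.9% of WT peaks were shared.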
